A study of Mus musculus with 24 samples.

Results

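The 36 genes described here encode proteins of the endoplasmic reticulum, the compartment in which secreted and membrane proteins are inserted, folded and glycosylated. They were chosen by symbol from the deposited expression table, which held 24016 gene symbols, and the transcript with the highest mean level was taken where a symbol had several. Every one of the 36 symbols was found, and all 36 passed the filter on low values. By role they comprise 7 chaperones of the Hsp70, Hsp90 and Hsp40 systems, 4 protein disulfide isomerases, 4 lectin, calcium-binding or prolyl isomerase proteins, 2 stress-induced luminal or secreted factors and 4 parts of the degradation machinery. The others are 3 stress sensors and transcription factors, 3 subunits of the Sec61 channel, 4 subunits of the translocon-associated protein complex, 2 subunits of the signal peptidase complex and 3 subunits of the oligosaccharyltransferase.

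Poly(A) RNA was sequenced from hindlimb muscle of mice on a C57BL/6 background, 7 days after unilateral ligation of the femoral artery below the branching point of its deep thigh branch. The 4 groups of 6 libraries were ischemic gastrocnemius of T2DM (type 2 diabetic) mice, ischemic gastrocnemius of control mice, normoxic adductor of T2DM mice and normoxic adductor of control mice. All 24 libraries therefore came from operated animals, and the adductor is another muscle as well as a normoxic one, so that muscle identity and ischemia cannot be told apart. How diabetes was produced, and the age and sex of the mice, are not given in the sources used here.

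The reticulum receives most secreted and membrane proteins while they are being made. The signal recognition particle brings the ribosome to the Sec61 channel, signal peptidase removes the targeting peptide, and the oligosaccharyltransferase attaches glycans that the lectin chaperones calnexin and calreticulin then read. When unfolded protein accumulates, the sensors encoded by Ern1, Atf6 and Eif2ak3 start the unfolded protein response, in which the factors XBP1, ATF6 and ATF4 raise transcription of chaperones, disulfide isomerases and degradation genes. Skeletal muscle fibres hold a specialised form of this membrane, the sarcoplasmic reticulum, whereas fibroblasts, which secrete collagen, and plasma cells are the usual examples of cells with a large secretory apparatus.

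Levels are given as RPKM, the reads on a transcript's exons per kilobase of exon and per M reads of the library, and library totals ran from 7.13 to 15.6 M reads. The level of the glycolytic gene Gapdh, chosen after the values had been seen, separated the libraries into a first and a second set, a split that the labels do not record. In the first set, of 14 libraries (T2DM 1 to 4 and control 1 to 3 of both muscles), Gapdh lay between 677 and 1757 RPKM. In the second, of 10 libraries (T2DM 5 and 6 and control 4 to 6 of both muscles), it lay between 0.365 and 13.7 RPKM. There the T2DM libraries held 3.71 to 13.7 RPKM of Gapdh and the control libraries 0.365 to 0.831, without overlap. Results are therefore also given within each set. Among the gastrocnemius libraries, T2DM gastrocnemius 2 and control gastrocnemius 3 stood apart, with the lowest value of their group of 6 for 22 and 27 of the 36 genes. These libraries held 50572 and 48939 RPKM of 10 summed muscle fibre markers, and the other gastrocnemius libraries of the first set 12373 to 23709 RPKM, against 40685 to 55670 RPKM in the adductor libraries of that set. In the second set the sums were 31820 to 47452 RPKM in gastrocnemius and 69741 to 91677 RPKM in adductor.

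The upstream sequences of genes in this group are known for short elements through which the unfolded protein response acts. The 3 best known were searched for on both strands in the RefSeq promoter table of build GRCm38.p6, which gives 250 bases before and 50 after a gene's start and held 31 of the 36 genes. The endoplasmic reticulum stress element, which is CCAAT, 9 free bases and CCACG, is bound by NF-Y at its CCAAT part and by ATF6 or XBP1 at its CCACG part. It was found in 8 of the 31 (25.8%), namely Hspa5, Hsp90b1, Dnajc3, Pdia6, Calr, Canx, Creld2 and Syvn1. Of all 27025 genes with a listed promoter, 37 held it (0.137%). The related element of ATTGG, 1 free base and CCACG was found in Dnajb11 and Herpud1 (6.45%), against 12 of all genes (0.0444%). The unfolded protein response element TGACGTGG was found in 0 of the 31 and in 193 of all genes (0.714%). A match is a match of letters in this window and no measure of binding. Since genes of this group were already known for such elements, the share of matches among them is no independent result. The promoters of the 5 genes with the first element that had the highest mean RPKM are printed because they share these letters. Whether the element bears on the differences between the muscles was not tested. The capitals mark the fixed letters of each match, CCAAT and CCACG or, on the opposite strand, CGTGG and ATTGG.
Calr (calreticulin), chr8:84846882-84847181, minus strand: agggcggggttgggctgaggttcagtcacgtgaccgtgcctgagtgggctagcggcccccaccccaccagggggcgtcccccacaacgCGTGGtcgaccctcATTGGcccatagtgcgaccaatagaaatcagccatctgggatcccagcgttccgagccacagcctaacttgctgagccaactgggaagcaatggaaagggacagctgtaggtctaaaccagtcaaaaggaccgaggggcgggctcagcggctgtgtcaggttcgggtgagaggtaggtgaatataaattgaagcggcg
Hspa5 (BiP), chr2:34771840-34772139, plus strand: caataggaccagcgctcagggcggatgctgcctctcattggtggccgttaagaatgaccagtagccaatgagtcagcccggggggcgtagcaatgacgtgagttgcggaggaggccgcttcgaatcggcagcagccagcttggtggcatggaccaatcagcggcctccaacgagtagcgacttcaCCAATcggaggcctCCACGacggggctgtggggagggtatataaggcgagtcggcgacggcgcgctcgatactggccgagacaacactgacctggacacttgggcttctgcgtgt
Hsp90b1 (GRP94), chr10:86705395-86705694, minus strand: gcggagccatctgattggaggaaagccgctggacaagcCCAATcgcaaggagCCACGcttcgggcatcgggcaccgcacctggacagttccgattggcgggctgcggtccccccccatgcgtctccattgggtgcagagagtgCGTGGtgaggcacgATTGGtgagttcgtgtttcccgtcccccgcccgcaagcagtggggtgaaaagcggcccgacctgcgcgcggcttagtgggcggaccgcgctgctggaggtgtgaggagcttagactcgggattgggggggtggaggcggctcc
Canx (calnexin), chr11:50325624-50325923, minus strand: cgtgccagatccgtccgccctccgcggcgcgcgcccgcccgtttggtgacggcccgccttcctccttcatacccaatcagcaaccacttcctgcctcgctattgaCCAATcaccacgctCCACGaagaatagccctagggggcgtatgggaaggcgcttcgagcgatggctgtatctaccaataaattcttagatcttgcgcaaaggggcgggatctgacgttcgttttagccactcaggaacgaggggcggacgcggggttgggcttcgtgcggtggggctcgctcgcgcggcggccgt
Pdia6, chr12:17266339-17266638, plus strand: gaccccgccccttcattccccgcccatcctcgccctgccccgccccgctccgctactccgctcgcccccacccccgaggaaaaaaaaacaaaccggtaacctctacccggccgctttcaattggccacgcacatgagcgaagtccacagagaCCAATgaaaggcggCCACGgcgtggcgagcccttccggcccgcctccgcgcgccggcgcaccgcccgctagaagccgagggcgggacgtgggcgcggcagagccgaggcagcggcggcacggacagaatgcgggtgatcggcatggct
Counted from the start site, the match began at position -65 in Hspa5, -98 in Pdia6, -145 in Canx and -162 in Calr, and Hsp90b1 held a match on each strand, at -212 and -107.

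Ischemic gastrocnemius held more RNA of most of the 36 genes than normoxic adductor, in T2DM and in control mice. Summed over the 36 genes, T2DM gastrocnemius libraries held 1023 to 2115 RPKM (median 1633) and T2DM adductor libraries 576 to 812 (median 710.4). Control gastrocnemius libraries held 1031 to 2730 RPKM (median 1932) and control adductor libraries 534 to 761 (median 712). The lowest gastrocnemius sum of either mouse group lay above every adductor sum. The ratio of the mean sums, gastrocnemius over adductor, was 2.35 in T2DM mice (2.62 in the first set and 1.88 in the second) and 2.86 in control mice (3.23 and 2.55). In bulk muscle, a change in the cells present and a change in RNA per cell cannot be told apart.

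In limma's test of gastrocnemius minus adductor, 27 of the 36 genes were higher and 0 lower in T2DM mice at an adjusted p under 0.05, against 48.1% of all 12382 tested genes called higher and 8.83% called lower. In control mice 31 were higher and 0 lower, against 54.4% and 8.7% of all genes. As a share of the 36, the genes called higher were 75% and 86.1%. The median log2 difference of the 36 genes was 1.10 in T2DM mice, where that of all tested genes was 0.55, and 1.44 in control mice, where that of all tested genes was 0.66. Gastrocnemius and adductor libraries did not overlap, 6 against 6, for 20 of the genes in T2DM mice (29.0% of all genes, higher) and for 22 in control mice (33.3%).

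These counts depend on the scale, because RPKM divides each library by 1 total and the median of all genes lay above 0 in both comparisons. After median-of-ratios scaling, which put the median of all genes at -0.04 in T2DM and -0.02 in control mice, 18 genes were higher and 3 lower in T2DM mice, against 27.4% and 26.2% of all genes. In control mice 19 were higher and 2 lower, against 28.4% and 26.5%. The median log2 difference of the 36 genes was then 0.44 in T2DM mice and 0.67 in control mice. The genes called lower on that scale were Dnajb9 and Herpud1 in both mouse groups and Ssr3 in T2DM mice. On both scales, 17 genes were called higher in both mouse groups. These 17 were Hspa5, Hsp90b1, Sdf2l1, P4hb, Pdia3, Pdia4, Pdia6, Calr, Calu, Ppib, Manf, Creld2, Edem1, Sec61a1, Ssr1, Ssr2 and Ddost.

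**Figure D1:**
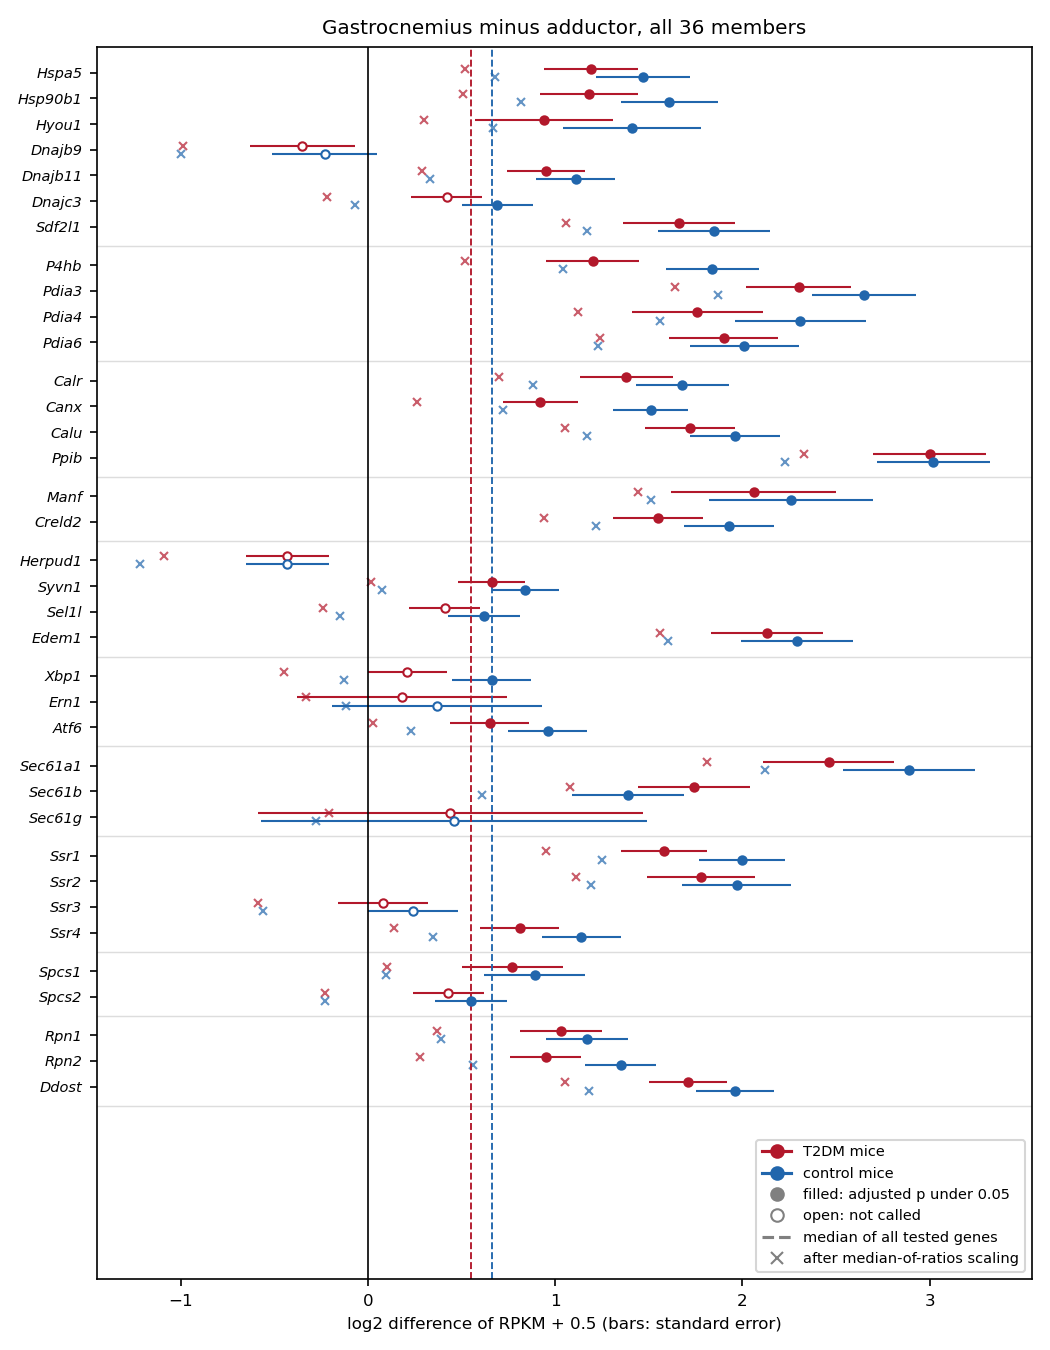
Log2 difference of RPKM + 0.5, gastrocnemius minus adductor, for each of the 36 genes (rows, grouped by role) in T2DM mice (red, upper point) and control mice (blue, lower point), with standard errors from limma over 6 libraries a group. Filled points passed an adjusted p of 0.05, dashed lines give the median of all tested genes (0.55 and 0.66), and crosses give the difference after median-of-ratios scaling. Ppib, Sec61a1 and Pdia3 lie farthest to the right, and Herpud1 and Dnajb9 are the genes left of 0.

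Genes of other cell types moved with this difference. All 8 fibroblast markers were higher in gastrocnemius in both mouse groups, with summed levels of 1766 to 6650 RPKM in T2DM gastrocnemius against 264 to 537 in T2DM adductor, and of 2349 to 7891 in control gastrocnemius against 215 to 1174 in control adductor. Of 8 macrophage markers, 7 were higher in both mouse groups, with sums of 403 to 1434 RPKM in T2DM gastrocnemius against 53.7 to 107 in T2DM adductor, and of 416 to 1692 in control gastrocnemius against at most 258 in control adductor. All 8 markers of regenerating muscle were higher in both mouse groups. Of 10 muscle fibre markers, 5 were lower and 1 higher in T2DM mice, and 6 lower and 1 higher in control mice. Counts of muscle fibre and regenerating muscle markers are given on the RPKM scale only. On that scale 8.83% of all tested genes were called lower in T2DM and 8.7% in control mice. After median-of-ratios scaling these shares were 26.2% and 26.5%. After median-of-ratios scaling, 5 of the fibroblast markers were higher in T2DM mice and 7 in control mice, and 6 and 7 macrophage markers were higher with 1 lower in each. Endothelial markers were higher for 4 of 6 in T2DM and 3 of 6 in control mice (0 and 1 after that scaling). Of all tested genes, 48.1% were called higher in T2DM and 54.4% in control mice (27.4% and 28.4% after that scaling). On the RPKM scale the endothelial count was thus above the share of all genes in T2DM mice and near it in control mice. After median-of-ratios scaling it was below the share in both. Of the 6 plasma and B cell markers only Cd79b passed the filter, with sums of all 6 between 1.58 and 3.58 RPKM in gastrocnemius libraries. These sums were 0.7 to 2.0 RPKM in T2DM adductor and 0.9 to 17.9 in control adductor, where control adductor 5 was the highest. Of 5 tested erythroid markers 0 were called in either mouse group. No marker of any list was at 0 in all libraries of a group, and the part of these cell types in the levels of the 36 genes was not tested.

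**Figure D2:**
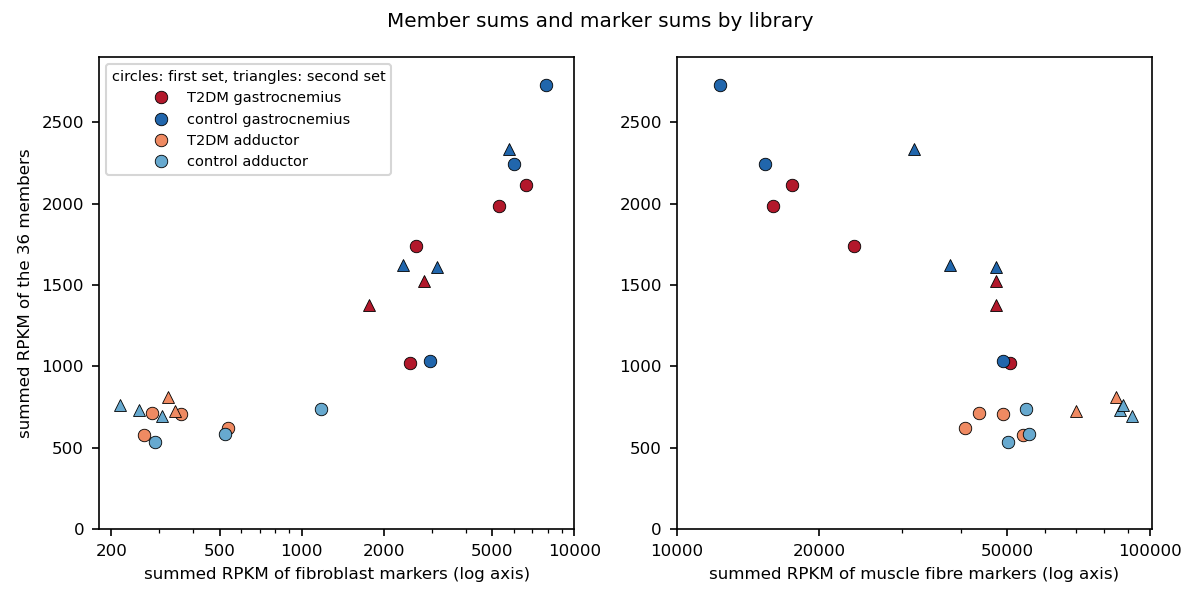
Summed RPKM of the 36 genes (vertical axis) against the summed RPKM of 8 fibroblast markers (left, log axis) and of 10 muscle fibre markers (right, log axis), with 1 point per library, coloured by group. All 12 gastrocnemius libraries lie at 1766 RPKM of fibroblast markers or more and all 12 adductor libraries at 1174 or less, and T2DM gastrocnemius 2 and control gastrocnemius 3 (sums of 1023 and 1031) lie within the range of the adductor libraries in fibre markers, as do 3 gastrocnemius libraries of the second set. Circles are the first set of libraries and triangles the second.

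Among the chaperones, Hspa5 encodes BiP, the Hsp70 of the reticulum and its main general chaperone. It lay between 56.4 and 134 RPKM (median 84.2) in T2DM gastrocnemius, against 31.4 to 53.4 (median 38.97) in T2DM adductor. In control mice it lay between 64.1 and 181 RPKM (median 119.7) in gastrocnemius, against 31.4 to 50.4 (median 40.96) in adductor. Gastrocnemius and adductor did not overlap in either mouse group. Its log2 difference was 1.19 ± 0.25 (SE) in T2DM mice (limma adjusted p = 0.00026) and 1.47 ± 0.25 in control mice (adjusted p = 2e-05). Hsp90b1, which encodes the Hsp90 paralogue GRP94 and, like Hspa5, carries the stress element printed above, had 1.18 ± 0.26 and 1.61 ± 0.26.

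Sdf2l1, a luminal partner of the DnaJ chaperones, had the largest difference of the 7 chaperone genes, 1.66 ± 0.30 in T2DM and 1.85 ± 0.30 in control mice. Dnajb11, an Hsp40 co-chaperone of BiP, had 0.95 ± 0.21 and 1.11 ± 0.21. Hyou1, an Hsp70-like nucleotide exchange factor, had 0.94 ± 0.37 in T2DM mice (adjusted p = 0.032) and 1.41 ± 0.37 in control mice (0.0019). The T2DM call of Hyou1 was lost in 5 of the fits that left out 1 library, with adjusted p of 0.056 to 0.097: without T2DM adductor 5 or 6, or without T2DM gastrocnemius 1, 3 or 4. Dnajc3, the co-chaperone also known as p58IPK, passed in control mice (0.69 ± 0.19, adjusted p = 0.0034) and not in T2DM mice (0.42 ± 0.19, 0.069), and without T2DM gastrocnemius 5 it passed there as well (0.027), as it did with the replicate block (0.024). After median-of-ratios scaling its values were -0.22 and -0.07, not called. Dnajb9, which encodes the BiP co-chaperone ERdj4, was not called in either group, with -0.35 ± 0.28 and -0.23 ± 0.28, and was called lower in both after median-of-ratios scaling (-0.99 and -1.0).

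The 4 disulfide isomerases, which form and rearrange disulfide bonds, were all higher in gastrocnemius in both mouse groups. P4hb, the classical isomerase and also the beta subunit of collagen prolyl 4-hydroxylase, was the most abundant. It lay between 95.6 and 222 RPKM (median 136) in T2DM gastrocnemius, against 47.4 to 82.6 (median 63.0) in T2DM adductor. Control gastrocnemius held 98.0 to 275 RPKM (median 173), against 40.5 to 61.2 (median 45.3) in control adductor. No gastrocnemius library overlapped the adductor libraries of its mouse group. The log2 difference of P4hb was 1.2 ± 0.25 in T2DM mice and 1.84 ± 0.25 in control mice.

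Pdia3, which encodes ERp57 and works with calnexin and calreticulin on glycoproteins, had among the smallest p of the 36 genes in both comparisons. Its range was 36.2 to 112 RPKM (median 69.97) in T2DM gastrocnemius, against 11.6 to 15.4 (median 13.5) in T2DM adductor. In control mice the range was 39.2 to 150.2 RPKM (median 98.5) in gastrocnemius, against 9.49 to 22.2 (median 13.7) in adductor. The lowest gastrocnemius libraries, T2DM 2 and control 3, still lay above every adductor library. Pdia3 had a log2 difference of 2.30 ± 0.28 in T2DM mice (adjusted p = 5.1e-07) and 2.65 ± 0.28 in control mice (7.1e-08), and after median-of-ratios scaling 1.64 and 1.87. Pdia6 had 1.90 ± 0.29 and 2.01 ± 0.29, and Pdia4 had 1.76 ± 0.35 and 2.31 ± 0.35.

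Calr, which encodes calreticulin, the soluble lectin chaperone that also buffers calcium, was the most abundant of the 36 genes by its mean over all libraries, 111 RPKM. It lay between 92.5 and 219.9 RPKM (median 148) in T2DM gastrocnemius, against 51.6 to 63.0 (median 54.2) in T2DM adductor. Control gastrocnemius held 92.3 to 307 RPKM (median 164), against 44.7 to 63.6 (median 50.2) in control adductor. Its log2 differences were 1.38 ± 0.25 in T2DM and 1.68 ± 0.25 in control mice, with no overlap between the muscles. Canx, its membrane-bound counterpart calnexin, had smaller differences of 0.92 ± 0.20 and 1.51 ± 0.20.

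Ppib had the largest muscle difference of the 36 genes. It encodes cyclophilin B, a prolyl isomerase that takes part in collagen folding. T2DM gastrocnemius held 63.8 to 215 RPKM (median 174), against 12.3 to 23.6 (median 18.5) in T2DM adductor. In control mice the levels were 70.7 to 261 RPKM (median 178) in gastrocnemius, against 12.5 to 34.0 (median 19.2) in adductor. The lowest gastrocnemius libraries were T2DM gastrocnemius 2 and control gastrocnemius 3, and the others held 142 RPKM or more. The log2 difference was 3.0 ± 0.30 in T2DM mice (adjusted p = 4.9e-08) and 3.02 ± 0.30 in control mice (3.5e-08), and 2.33 and 2.23 after median-of-ratios scaling. Of the words of 31 bases in the Ppib transcript 61% occur in 2 other genes as well, of which Snx22 shares the most and overlaps it on the opposite strand. Since the header shows no strand option, reads of these genes cannot be told apart.

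Calu encodes calumenin, a calcium-binding protein of the secretory pathway with several EF-hands. It lay between 50.5 and 111 RPKM (median 75.2) in T2DM gastrocnemius, against 16.3 to 31.2 (median 23.1) in T2DM adductor. Control gastrocnemius held 54.2 to 142 RPKM (median 101), against 19.8 to 28.8 (median 23.3) in control adductor. Neither mouse group showed overlap, and the log2 differences were 1.72 ± 0.24 (adjusted p = 2.3e-06) and 1.96 ± 0.24 (3.5e-07).

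Both stress-induced luminal or secreted factors were higher in gastrocnemius in both mouse groups. Manf, a factor retained in the reticulum and released under stress, lay between 6.27 and 46.8 RPKM (median 18.3) in T2DM gastrocnemius, against 2.55 to 6.47 (median 3.82) in T2DM adductor. In control gastrocnemius it lay between 6.22 and 52.1 RPKM (median 27.7), against 2.36 to 7.50 (median 5.17) in control adductor. The ranges overlapped in both mouse groups, through T2DM gastrocnemius 2 and control gastrocnemius 3. Its log2 differences were 2.06 ± 0.44 and 2.26 ± 0.44. Creld2, which encodes a secreted protein with disulfide isomerase activity, had 1.55 ± 0.24 and 1.93 ± 0.24 with no overlap.

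The 4 degradation genes did not move as 1 group. Edem1, a lectin that hands misfolded glycoproteins to degradation, was low in adductor and much higher in gastrocnemius, with log2 differences of 2.13 ± 0.30 in T2DM and 2.29 ± 0.30 in control mice. Syvn1, the ubiquitin ligase HRD1, had 0.66 ± 0.18 and 0.84 ± 0.18, which is close to the median of all tested genes and was 0.01 and 0.07 after median-of-ratios scaling. Sel1l, the adaptor of HRD1, passed in control mice (0.62 ± 0.19, adjusted p = 0.0064) and not in T2DM mice (0.41 ± 0.19, 0.065). Without T2DM gastrocnemius 1 or 5 it passed in T2DM mice too (0.03 and 0.023), as it did with the replicate block (0.025), and after median-of-ratios scaling its values were -0.24 and -0.15, not called.

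Herpud1, the most abundant of the 4, is a membrane component of the HRD1 complex and a widely used marker of the unfolded protein response. It lay between 29.6 and 49.1 RPKM (median 37.2) in T2DM gastrocnemius, against 39.9 to 72.6 (median 47.1) in T2DM adductor. Control gastrocnemius held 29.0 to 47.0 RPKM (median 38.8), against 33.4 to 73.5 (median 53.0) in control adductor. Its levels overlapped between the muscles, and the log2 difference was -0.43 ± 0.22 in both mouse groups (adjusted p = 0.10 in T2DM and 0.092 in control mice). With the replicate block, which pairs the muscles by number, Herpud1 was called lower in both (adjusted p = 0.011 and 0.01), and also after median-of-ratios scaling (-1.09 and -1.22). Within the second set Herpud1 was called lower in gastrocnemius in T2DM mice (-0.52, adjusted p = 0.025) and in control mice (-0.70, 0.0013), and in the first set in T2DM mice (-0.38, 0.039) but not in control mice (-0.15, 0.44). In control mice the call was also gained without control adductor 1 (-0.54, adjusted p = 0.036) or 2 (-0.52, 0.049).

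Of the 3 sensors and factors, Xbp1 was the most abundant. It encodes the factor whose mRNA is spliced by IRE1, and the table lists 2 transcripts of it, of 2220 and 2246 bases, both with a mean of 29.2 RPKM, so that splicing cannot be read from it. Xbp1 lay between 21.6 and 37.4 RPKM (median 31.6) in T2DM gastrocnemius, against 19.9 to 35.8 (median 25.2) in T2DM adductor. In control mice it lay between 26.5 and 53.5 RPKM (median 36.2) in gastrocnemius, against 13.7 to 31.4 (median 24.3) in adductor. The ranges overlapped in both mouse groups. Xbp1 passed in control mice (0.66 ± 0.21, adjusted p = 0.0096) and not in T2DM mice (0.21 ± 0.21, 0.41, and 0.28 with the replicate block), and after median-of-ratios scaling its values were -0.45 and -0.13, not called.

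Atf6, the sensor that is cleaved in the Golgi into a transcription factor, had 0.65 ± 0.21 in T2DM and 0.96 ± 0.21 in control mice, and 0.03 and 0.23 after median-of-ratios scaling, where it was not called. Ern1, which encodes IRE1 alpha, was the least abundant of the 36 genes, with a mean of 1.58 RPKM over all libraries, and had 0.18 ± 0.56 and 0.37 ± 0.56 (adjusted p = 0.81 and 0.58).

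In the Sec61 channel, the subunits gave different differences. Sec61a1, which encodes the pore, had 2.46 ± 0.35 in T2DM and 2.89 ± 0.35 in control mice, second to Ppib. The gene of the small beta subunit, Sec61b, lay between 25.4 and 76.1 RPKM (median 45.5) in T2DM gastrocnemius, against 8.21 to 21.3 (median 13.9) in T2DM adductor. Control gastrocnemius held 22.6 to 86.8 RPKM (median 58.8), against 12.6 to 27.2 (median 20.8) in control adductor. The muscles did not overlap in T2DM mice and overlapped in control mice through control gastrocnemius 3. Sec61b had 1.74 ± 0.30 and 1.39 ± 0.30, and 54.5% of its words of 31 bases occur in other genes. Sec61g, the gamma subunit, had 0.44 ± 1.03 and 0.46 ± 1.03, with a standard error set by the library sets described below.

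The translocon-associated protein complex, which helps certain signal peptides through the channel, was called for the same 3 of its 4 genes in T2DM and control mice. Of these, only Ssr1 and Ssr2 were called higher in both mouse groups after median-of-ratios scaling as well. Ssr1, the alpha subunit, was among the 4 genes with the smallest p in control mice. It lay between 7.46 and 18.3 RPKM (median 12.7) in T2DM gastrocnemius, against 3.55 to 4.69 (median 3.85) in T2DM adductor. In control mice its range was 7.14 to 24.7 RPKM (median 17.95) in gastrocnemius, against 2.97 to 5.26 (median 3.63) in adductor. These ranges did not overlap, and the log2 differences were 1.58 ± 0.23 (adjusted p = 5.7e-06) and 2.00 ± 0.23 (2.3e-07). Ssr2 had 1.78 ± 0.29 and 1.97 ± 0.29, and Ssr4 had 0.81 ± 0.21 and 1.14 ± 0.21.

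Ssr3, the gamma subunit and the most abundant of this complex, was the exception. It lay between 36.8 and 74.1 RPKM (median 68.0) in T2DM gastrocnemius, against 34.3 to 97.3 (median 53.0) in T2DM adductor. Control gastrocnemius held 58.7 to 97.4 RPKM (median 78.6), against 48.5 to 88.9 (median 65.1) in control adductor. The muscles overlapped in both mouse groups, with log2 differences of 0.08 ± 0.24 and 0.24 ± 0.24, and after median-of-ratios scaling -0.59 (adjusted p = 0.039) and -0.56 (0.052).

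Of the signal peptidase genes, Spcs1 was called higher in gastrocnemius in both mouse groups and Spcs2 in control mice. Spcs1 lay between 41.6 and 81.8 RPKM (median 66.8) in T2DM gastrocnemius, against 26.1 to 52.3 (median 39.3) in T2DM adductor. In control mice it lay between 42.6 and 104 RPKM (median 73.3) in gastrocnemius, against 21.1 to 59.4 (median 41.5) in adductor. The ranges overlapped in both mouse groups, and the log2 differences were 0.77 ± 0.27 (adjusted p = 0.017) and 0.89 ± 0.27 (0.0063), and 0.10 and 0.09 after median-of-ratios scaling, not called. Spcs2 passed in control mice (0.55 ± 0.19, adjusted p = 0.016) and not in T2DM mice (0.43 ± 0.19, 0.062), where it passed in 4 of the fits that left out 1 library (0.026 to 0.046): without T2DM adductor 5 or 6, without T2DM gastrocnemius 2, or without control gastrocnemius 3. With the replicate block it passed in T2DM mice as well (adjusted p = 0.013). After median-of-ratios scaling Spcs2 had -0.23 in both mouse groups, not called. Of the words of 31 bases in Spcs1, 21.4% occur in other genes, of which the overlapping gene Glt8d1 shares the most.

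All 3 oligosaccharyltransferase genes were called higher in gastrocnemius in both mouse groups on the RPKM scale. Only Ddost was called higher in both mouse groups after median-of-ratios scaling as well. Rpn2, a ribophorin and the most abundant of the 3, lay between 33.8 and 61.4 RPKM (median 42.7) in T2DM gastrocnemius, against 20.01 to 25.9 (median 23.3) in T2DM adductor. Control gastrocnemius held 29.2 to 79.6 RPKM (median 57.9), against 16.4 to 24.2 (median 21.4) in control adductor. No ranges overlapped, and Rpn2 had log2 differences of 0.95 ± 0.19 and 1.35 ± 0.19. Ddost, which encodes a non-catalytic subunit, was among the 4 genes with the smallest p in both comparisons.

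Ddost held 32.2 to 68.0 RPKM (median 54.0) in T2DM gastrocnemius, against 12.0 to 17.9 (median 15.5) in T2DM adductor. In control mice it held 30.4 to 81.1 RPKM (median 60.6) in gastrocnemius, against 10.9 to 19.4 (median 13.7) in adductor. Every gastrocnemius library lay above every adductor library of its mouse group, and the log2 differences were 1.71 ± 0.21 (adjusted p = 5.7e-07) and 1.96 ± 0.21 (8.4e-08). Rpn1 had 1.03 ± 0.22 and 1.17 ± 0.22.

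**Figure D3:**
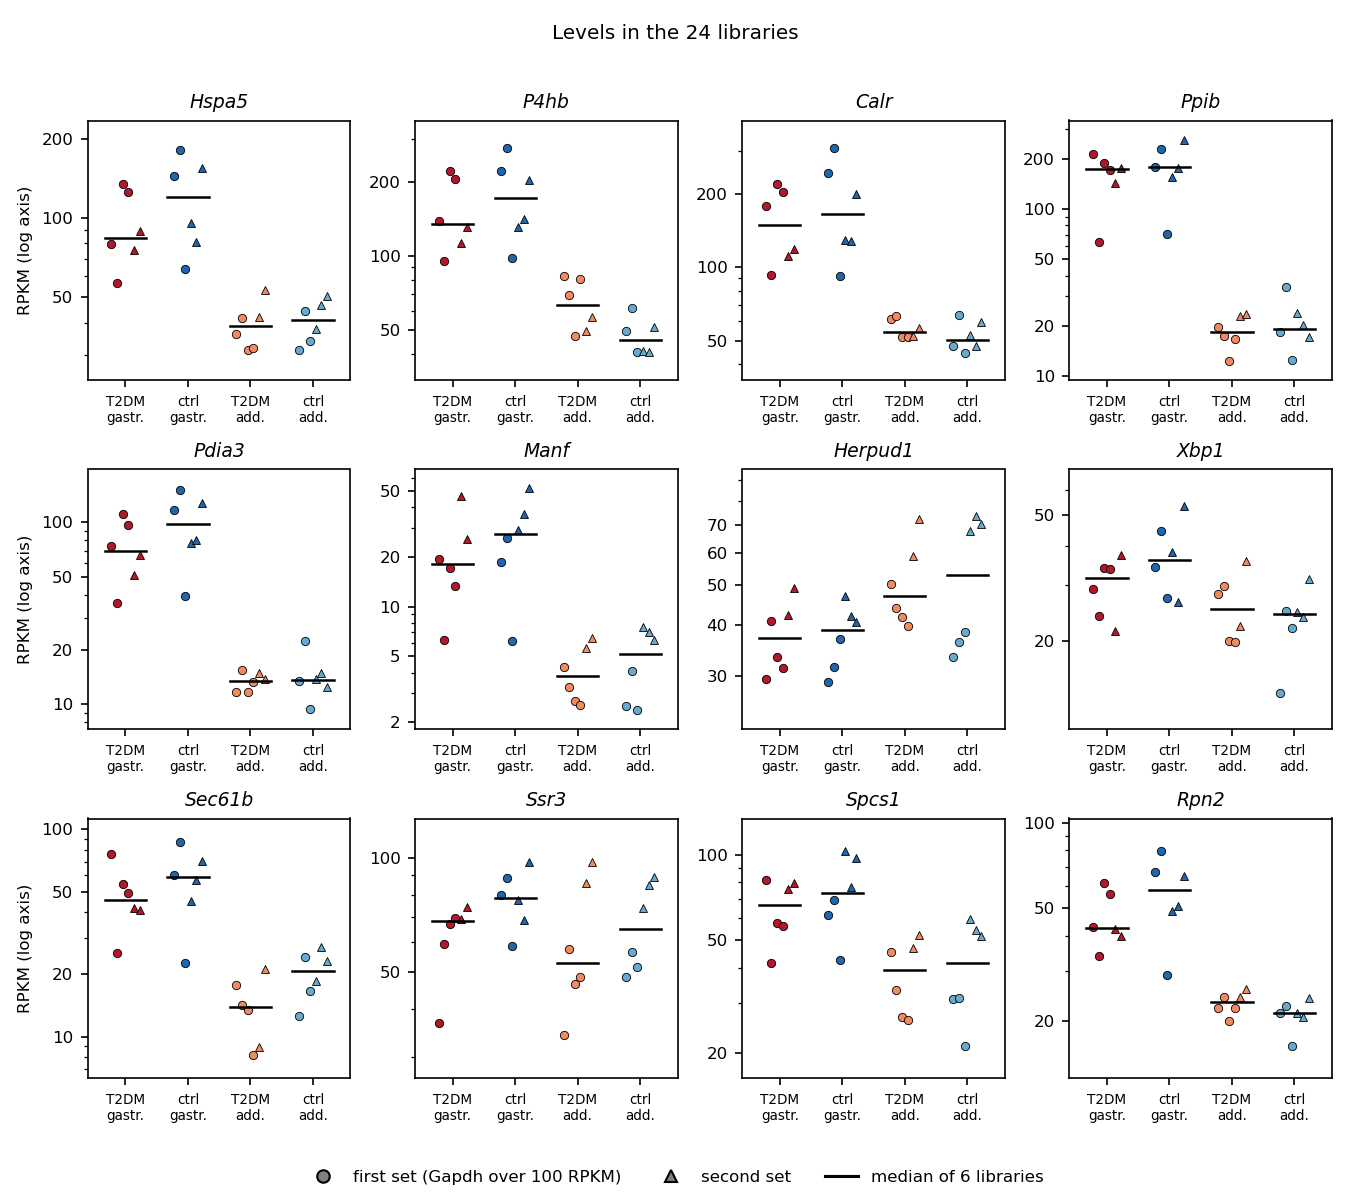
RPKM (log axes, scaled per gene) of 12 of the 36 genes in each of the 24 libraries, with T2DM and control gastrocnemius left of T2DM and control adductor in each panel. Circles are the first set of libraries, triangles the second, and lines the medians of 6. Gastrocnemius lies wholly above adductor in Hspa5, P4hb, Calr, Ppib, Pdia3 and Rpn2, and the muscles overlap in Herpud1, Xbp1, Ssr3 and Spcs1.

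Within each set alone the direction was the same for most of the genes. In the first set 31 of the 36 passed as higher and 1 as lower in T2DM mice, against 57.3% and 7.48% of all genes, and 32 higher and 0 lower in control mice, against 59.3% and 4.8%. In the second set, with 2 T2DM and 3 control libraries a muscle, 22 were called higher and 1 lower in T2DM mice (35.2% and 13.1% of all genes), and 30 higher and 1 lower in control mice (51.3% and 12.2%). Of the genes called over all T2DM libraries, Hspa5 (0.79, adjusted p = 0.052), Hyou1 (0.15, 0.75), Pdia4 (0.85, 0.097), Syvn1 (0.25, 0.44) and Atf6 (0.42, 0.15) were not called in the second set. The gene called lower was Herpud1 in each case. Without T2DM gastrocnemius 2 and control gastrocnemius 3, an alternative chosen after the values had been seen, 28 were higher in T2DM mice and 31 in control mice, and 0 were lower (48.8% and 54.5% of all genes higher, 10.1% and 9.63% lower). These libraries were left out for their low sums of the same 36 genes. Leaving them out tends to raise the differences of these genes, so that fit is no separate support. With the replicate block that pairs the muscles of a mouse group by number, 30 were higher and 1 lower in T2DM mice (56.7% and 11.9% of all genes), and 31 and 1 in control mice (62.9% and 11.2%). The genes that gained a call with the block were Dnajc3, Sel1l and Spcs2, higher in T2DM mice, and Herpud1, lower in both mouse groups. The block also takes up the set, since each set holds the same numbers in both muscles. With a term for the set instead, 4 genes gained a call in T2DM mice and 1 in control mice. Of all tested genes, 8460 were called in T2DM mice with that term and 8498 with the block, and 9137 and 9168 in control mice. With T2DM and control mice in separate tests, the genes called in control mice alone (Dnajc3, Sel1l, Xbp1 and Spcs2) are not shown to differ between the mouse groups, and that difference, tested below, was not called for any of them.

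For 5 genes (Sec61g, Ern1, Dnajb9, Herpud1 and Ssr3) the log2 difference between the sets was larger in size than that between the muscles in either mouse group. The share of all tested genes for which this held was not counted. Sec61g lay between 23.5 and 71.9 RPKM in the 14 libraries of the first set and between 1.98 and 4.13 RPKM in the 10 of the second, with no overlap over muscles and mouse groups. Its mean log2 difference, second minus first set over the 4 groups, was -3.55, and 53.9% of its words of 31 bases occur in 10 other genes. Ern1 lay between 1.11 and 3.96 RPKM in the first set and between 0.0936 and 0.554 in the second, a difference of -1.83, with 0% of its words shared. A count of 3 reads on 1 kb corresponds to 0.192 RPKM at the largest library total and to 0.421 RPKM at the smallest. Dnajb9, Herpud1 and Ssr3 were higher in the second set, by 0.80, 0.59 and 0.52. Manf was also higher there, by 1.18, which is less than its difference between the muscles. Of the 36 genes, 2 lay below -1 and 1 above 1, where 13.1% of all tested genes lay outside 1 in either direction. Of all tested genes 2.18% lay below -2, and the median difference was 0.01 for the 36 genes and -0.11 for all tested genes. Library totals ran from 12.0 to 15.6 M reads in the first set and from 7.13 to 11.8 M in the second, without overlap. What else distinguishes the sets was not tested.

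Within the first set Sec61g was called higher in gastrocnemius in T2DM mice (0.80, adjusted p = 0.015) and in control mice (0.79, 0.031), and in the second set it was called in neither (-0.27 and 0.13, 0.52 and 0.69). Ern1 was not called in either set in either mouse group.

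**Figure D4:**
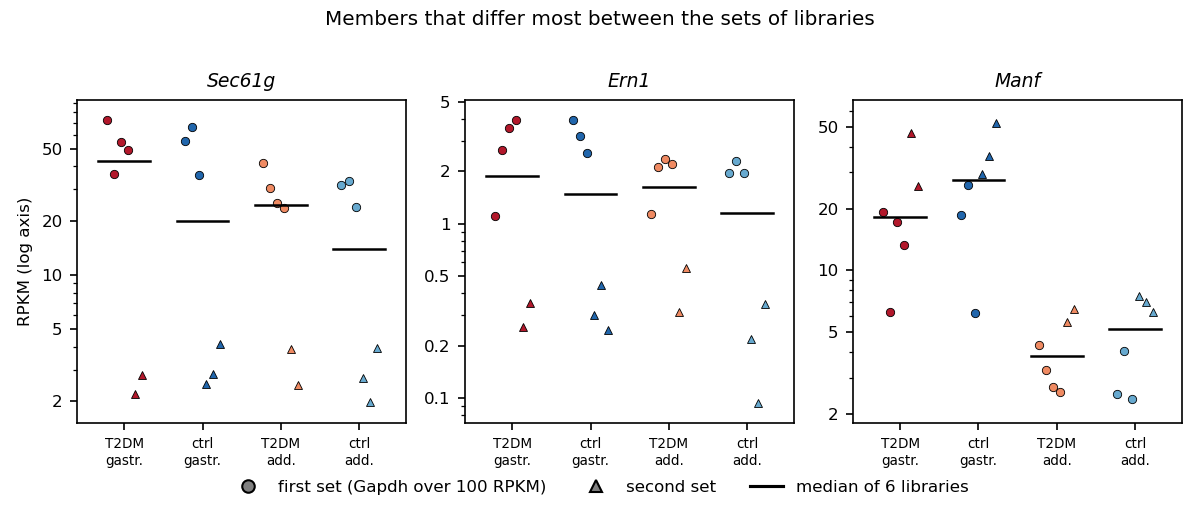
RPKM (log axes) of Sec61g, Ern1 and Manf in each of the 24 libraries, with circles for the first and triangles for the second set and lines for medians of 6. In Sec61g and Ern1 every circle lies above every triangle in all 4 groups, and in Manf every triangle lies above the circles of its own group.

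The other genes of the pathway, numbered 81, of which 78 were tested. In T2DM mice 50 were higher and 4 lower in gastrocnemius, against 48.1% and 8.83% of all tested genes, with a median log2 difference of 0.80, and in control mice 61 were higher and 1 lower, against 54.4% and 8.7%, with a median of 0.99. After median-of-ratios scaling these counts were 24 higher and 14 lower in T2DM mice, against 27.4% and 26.2% of all genes, and 27 and 9 in control mice, against 28.4% and 26.5%, with medians of 0.15 and 0.23. The same shares of all genes apply to the groups of this list given next. The list was chosen with earlier results of these data known.

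Among 17 tested further folding enzymes and chaperones, 14 were higher in T2DM and 15 in control mice, with medians of 1.85 and 2.06, and 10 were higher in each after median-of-ratios scaling, with 1 lower in T2DM mice. Fkbp10, a prolyl isomerase that acts on collagen, averaged 41.7 ± 15.1 RPKM in T2DM gastrocnemius against 1.63 ± 0.45 in T2DM adductor, and 51.4 ± 22.9 in control gastrocnemius against 2.38 ± 1.56 in control adductor (SD, n = 6 each). Its log2 difference was 4.22 ± 0.37 and 4.13 ± 0.37. Rcn3 and Rcn1, calcium-binding reticulocalbins related to calumenin, had 3.34 ± 0.36 and 3.01 ± 0.33 in T2DM mice, and 3.61 ± 0.36 and 3.30 ± 0.33 in control mice.

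Of 18 genes of transport between reticulum and Golgi, 11 were higher and 1 lower in T2DM mice, and 14 higher and 1 lower in control mice. After median-of-ratios scaling 5 were higher and 4 lower in T2DM mice (median 0.01), and 6 higher and 3 lower in control mice (median 0.15). Kdelr3 and Kdelr2, receptors that return luminal chaperones from the Golgi, had 3.43 ± 0.33 and 1.89 ± 0.28 in T2DM mice, and 3.65 ± 0.33 and 2.36 ± 0.28 in control mice. Tmed9, a cargo receptor, had 1.73 ± 0.27 in T2DM mice, and Sec31a, of the outer COPII coat, 1.5 ± 0.20 in control mice. Sar1b, a GTPase that starts coat assembly, was the gene called lower, with 57.2 ± 37.7 RPKM in T2DM gastrocnemius against 252 ± 113 in T2DM adductor (SD, n = 6 each) and log2 differences of -2.27 ± 0.40 and -2.5 ± 0.40.

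Of 21 genes of targeting, translocation and glycosylation, 13 were higher and 1 lower in T2DM mice and 15 higher and 0 lower in control mice. Tram1, a membrane protein beside the channel, had 1.83 ± 0.24 and 2.13 ± 0.24, and Tusc3, an oxidoreductase subunit of the oligosaccharyltransferase, 2.07 ± 0.27 and 2.32 ± 0.27. Ostc, a further subunit, had 1.90 ± 0.33 in T2DM mice, and Stt3a, a catalytic subunit, 2.30 ± 0.34 in control mice. Srpr, the alpha subunit of the signal recognition particle receptor, was called lower in T2DM mice (-1.25 ± 0.39) and not in control mice (-0.89 ± 0.39). After median-of-ratios scaling 4 of the 21 genes were higher and 4 lower in T2DM mice (median -0.14), and 5 higher and 3 lower in control mice (median -0.05).

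Of 11 tested further degradation genes, 5 were higher and 2 lower in T2DM mice, and 9 higher and 0 lower in control mice. Herpud2, a paralogue of Herpud1, was called lower in T2DM mice (-0.39 ± 0.15) and not in control mice (0.04 ± 0.15). Os9, a lectin of the HRD1 complex, had 1.80 ± 0.23 and 2.02 ± 0.23, Edem2 had 1.64 ± 0.25 and 1.84 ± 0.25, and Derl2, a derlin, had 0.89 ± 0.20 and 1.09 ± 0.20. After median-of-ratios scaling, 2 were higher in each mouse group, and 4 were lower in T2DM and 2 in control mice. Of 11 tested genes of the PERK branch and other stress transcription factors, 7 were higher and 0 lower in T2DM mice (median 0.84), and 8 higher and 0 lower in control mice (median 1.24). After median-of-ratios scaling 3 were higher and 1 lower in T2DM mice (median 0.23), and 4 higher and 1 lower in control mice (median 0.50). Creb3l1, a membrane-bound transcription factor of collagen-secreting cells, had 3.03 ± 0.37 and 2.98 ± 0.37, Eif2ak3, the sensor PERK, 1.45 ± 0.23 and 1.46 ± 0.23, and Atf6b 1.5 ± 0.26 and 1.68 ± 0.26.

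Between T2DM and control mice 0 of the 36 genes were called in either muscle. In gastrocnemius none reached an unadjusted p under 0.05 (0 of 36, limma), and voom, limma's method for counts, on reads recovered from RPKM also called 0, against 0.00808% of all tested genes called. In adductor the counts were likewise 0, against 0.0323% of all genes. The groups of 6 overlapped for all 36 genes in both muscles, where 0.0323% of all genes did not overlap in each direction in gastrocnemius, and 0.194% (higher) and 0.0242% (lower) did not in adductor.

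In gastrocnemius 33 of the 36 differences, T2DM minus control, were negative, with a median of -0.23 where that of all tested genes was -0.06. Most tested genes were negative as well, with 4541 of 12382 positive. The ratio of the mean sums, T2DM over control, was 0.843 (0.857 in the first set and 0.781 in the second). None passed the test, and the genes share libraries, so that the sign count is a description of these 12 libraries. The 4 smallest p were those of Ssr1 (-0.36 ± 0.23, unadjusted p = 0.14), Pdia3 (-0.41 ± 0.28, 0.16), Sel1l (-0.27 ± 0.19, 0.16) and Dnajb9 (-0.41 ± 0.28, 0.17), each with an adjusted p of 1.0. Ssr1, for example, had 7.46 to 18.3 RPKM in T2DM and 7.14 to 24.7 RPKM in control gastrocnemius. Sel1l lay between 9.08 and 20.2 RPKM (median 12.3) in T2DM gastrocnemius, against 11.9 to 20.6 (median 15.5) in control gastrocnemius. Dnajb9 lay between 5.46 and 14.9 RPKM (median 8.77) in T2DM gastrocnemius, against 9.68 to 20.3 (median 10.4) in control gastrocnemius.

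Within the second set, 14 of the genes lay lower in both T2DM gastrocnemius libraries than in all 3 control ones, where 19.9% of all tested genes did, and 0 were higher in both (5.3% of all genes). These 14 were Hsp90b1, Hyou1, Pdia3, Pdia4, Calr, Canx, Sel1l, Edem1, Sec61b, Ssr1, Ssr2, Rpn1, Rpn2 and Ddost, and 0 of the 36 passed limma's test in that set, where 0.218% of all genes did and 7 of the 36 had an unadjusted p under 0.05, as did 1525 of the 12382 tested genes. Within the second set Gapdh also separated T2DM from control libraries. The T2DM gastrocnemius totals there (7.13 and 7.83 M reads) lay below the control ones (8.48 to 11.8 M). Mouse group and a technical difference can therefore not be told apart within that set. In the first set, with 4 T2DM and 3 control libraries, Dnajb9 alone did not overlap (lower in T2DM), where 0.695% of all genes did not overlap in that direction. Fibroblast markers had a median log2 difference of -0.42 and macrophage markers of -0.15 in the same comparison over all libraries, with 0 called, and their part in the values of the 36 genes was not tested.

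In adductor 19 of the 36 differences were positive and 17 negative, with a median of 0.04, the same as that of all tested genes. Of the 12382 tested genes, 7053 were positive. The smallest p was that of Sec61b, which lay between 8.21 and 21.3 RPKM (median 13.9) in T2DM adductor, against 12.6 to 27.2 (median 20.8) in control adductor, with a log2 difference of -0.56 ± 0.30 (unadjusted p = 0.075, adjusted 1.0). P4hb had 47.4 to 82.6 RPKM in T2DM adductor against 40.5 to 61.2 in control adductor, with 0.42 ± 0.25 (unadjusted p = 0.10). Canx lay between 19.1 and 25.0 RPKM (median 21.6) in T2DM adductor, against 14.6 to 19.8 (median 17.1) in control adductor, with 0.34 ± 0.20 (unadjusted p = 0.10). Ssr4 lay between 27.2 and 45.2 RPKM (median 37.5) in T2DM adductor, against 19.1 to 34.4 (median 33.4) in control adductor, with 0.26 ± 0.21 (0.23). In the first set Canx and Herpud1 lay higher in all 4 T2DM adductor libraries than in the 3 control ones, where 5.28% of all genes did. In the second set, 8 genes lay higher without overlap and 3 (Pdia6, Creld2 and Syvn1) lower, where 21.9% and 6.78% of all genes did. The limit given above for T2DM against control within the second set applies here too. The T2DM groups held 4 libraries of the first set and 2 of the second, and the control groups 3 and 3. The T2DM comparisons over all libraries are therefore partly mixed with the set. With a term for the set, 7 of the 36 differences changed sign in adductor and 4 in gastrocnemius. In adductor 9 changed sign in the first set alone and 12 in the second.

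The difference of the T2DM effects, gastrocnemius minus adductor, was called for 0 of the 36 genes by limma and for 0 by voom (limma's unadjusted p was under 0.05 for 0 of them), against 0.0% of all tested genes. It was negative for 34 of the 36 genes and positive for 4019 of all 12382 tested genes, so that most of those were negative too. Its median was -0.22 for the 36 genes and -0.11 for all tested genes. Its largest values were those of P4hb (-0.64 ± 0.35, unadjusted p = 0.08) and Canx (-0.58 ± 0.28, 0.051). These 3 comparisons share libraries, so their values are given side by side and are not independent of each other.

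**Figure D5:**
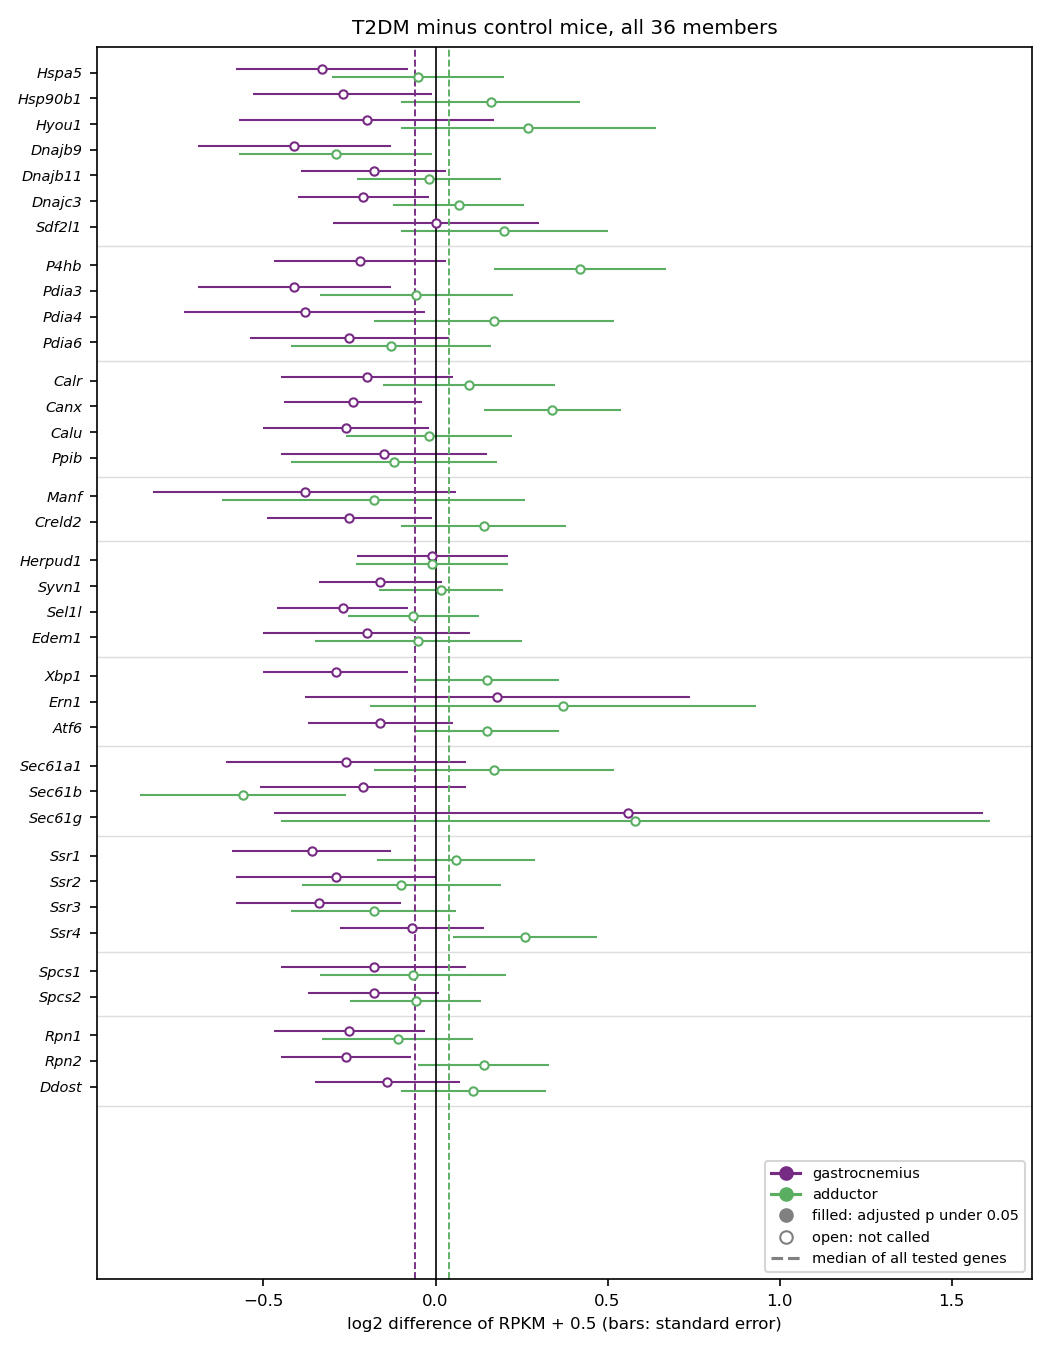
Log2 difference of RPKM + 0.5, T2DM minus control mice, for each of the 36 genes (rows, grouped by role) in gastrocnemius (purple, upper point) and adductor (green, lower point), with standard errors from limma over 6 libraries a group. All points are open, since 0 passed an adjusted p of 0.05, and dashed lines give the medians of all tested genes (-0.06 and 0.04). The purple points lie left of 0 for 33 genes, each within 2 standard errors of it, and Sec61g has the widest bars. Of all 12382 tested genes, 4541 had a positive difference in gastrocnemius.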

How the data were processed

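Poly(A) RNA-seq libraries from 24 muscle samples, 4 groups of 6, were grouped by their titles. The deposited values are RPKM per transcript, computed by the authors over exons with HOMER, per the file headers, from reads aligned with TopHat to mm9, per the submitters' processing notes. Tool versions are not given in the sources used here. The header shows no strand option. Whole reads within 0.01 were recovered from the RPKM values and the library totals in the header for 99.97% of values above 0.

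RPKM was tested as log2(RPKM + 0.5) with limma 3.58.1 in R 4.3.3, with 4 group means over all 24 libraries, for 12382 genes with at least 1 RPKM in at least 6 libraries, and with Benjamini-Hochberg adjustment over all of them and calls at 0.05. Log2 differences of genes at low levels are understated on this scale. The scripts were tested on simulated data. The library sets were split at 100 RPKM of Gapdh. Levels of 3 reads, given as a lower limit, cover counting error only. The labels do not say that the samples of a group came from separate animals, and the p-values then reflect sample-to-sample spread that may be technical. Pairs of libraries within a group differed by more than sampling noise (60 pairs, with a chi-square between 8.97 and 269 times its degrees of freedom).

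The members and gene lists were chosen with earlier results of these data known. The result of 1 listed gene is not reported here. Ranges are given for the most abundant gene of each role and the 4 genes with the smallest p in each comparison named in the text, and other genes by their differences. Alternatives were median-of-ratios scaling, quantile normalization, other pseudocounts and filters, a term for the set, each set alone, a replicate block, voom on recovered reads and leaving out each library. Leaving out both gastrocnemius libraries with the lowest sums was added after seeing the data.

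Replicate numbers are shared by all groups. Deviations from the group means of gastrocnemius and adductor with the same mouse group and number correlated at 0.254 to 0.736. Of these, 12 of 12 were over 0.1, and they were taken as pairs for the replicate block. This pairing comes from the data and not from the labels. With deviations taken within group and set, 7 of 12 were over 0.1. T2DM and control libraries of 1 muscle with the same number, which cannot be 1 animal, were over 0.1 in 9 of 12 pairs. Within group and set this was 7 of 12 as well. Each set holds the same numbers in both muscles of a mouse group. The correlations therefore cannot show that equal numbers mark 1 animal. With the replicate block, 30 genes were higher and 1 lower in T2DM mice, and 31 higher and 1 lower in control mice.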

Additional observations from a re-analysis of the deposited data

Results flagged for a closer look

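Libraries far from the rest of their group were sought on the log2 scale of the limma tests. In 15 of 144 groups of 6 libraries, 1 library lay apart from the other 5 on that scale. Its gap to the nearest, as a share of the group's range, exceeded Dixon's critical value at the 95% level. Chance gives about 1 in 20 such groups, and the groups share libraries. The levels listed next are in RPKM, on which the share differs and can fall short of the critical value.

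T2DM gastrocnemius 2 was the low library for Dnajb11 (15.2 RPKM, others 22.9 to 28.8), Pdia6 (19.0, others 40.01 to 59.8), Ppib (63.8, others 142 to 215) and Ssr2 (24.7, others 44.8 to 57.2). Control gastrocnemius 3 was low for Dnajb11 (15.1 RPKM, others 26.1 to 33.7) and Ssr4 (37.8, others 64.8 to 86.9). T2DM gastrocnemius 1 was low for Ssr3 (36.8 RPKM, others 59.4 to 74.1).

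T2DM adductor 1 was low for Dnajc3 (5.78 RPKM, others 7.33 to 8.36), Sel1l (6.93, others 9.73 to 11.1) and Edem1 (0.838, others 1.39 to 1.78), and high for Sdf2l1 (2.6, others 1.78 to 1.98) and Creld2 (3.83, others 2.18 to 2.48). Control adductor 2 was high for Sdf2l1 (3.47 RPKM, others 1.29 to 1.52) and Edem1 (2.89, others 1.03 to 1.55). This library also held the highest fibroblast marker sum of the adductor libraries, 1174 RPKM. Control adductor 3 was low for Ssr4 (19.1 RPKM, others 30.2 to 34.4).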

How the results depend on the processing

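After median-of-ratios scaling, the median log2 difference between gastrocnemius and adductor was 0.44 in T2DM and 0.67 in control mice, and 19 genes were called higher in control mice. With quantile normalization the medians were 0.70 and 0.97. With median-of-ratios scaling 7 genes changed sign in both mouse groups. In T2DM mice they were Ssr3 (-0.59, limma adjusted p = 0.039), which was then called, and Dnajc3 (-0.22), Sel1l (-0.24), Xbp1 (-0.45), Spcs2 (-0.23), Ern1 (-0.33) and Sec61g (-0.21). In control mice Dnajc3 (-0.07), Sel1l (-0.15), Xbp1 (-0.13) and Spcs2 (-0.23) lost their calls, and Ssr3 (-0.56), Ern1 (-0.12) and Sec61g (-0.28) were called on neither scale. With quantile normalization Spcs2 changed sign in control mice and lost its call (-0.01), and the other sign changes were of genes called on neither scale. Both methods bring the median of all genes near 0 by their construction. Leaving out 1 library at a time, 26 to 29 genes were called in T2DM mice (median 0.99 to 1.23) and 31 to 32 in control mice (31 higher, median 1.29 to 1.63). Between T2DM and control mice 0 were called in each such fit, with medians of 0.0 to 0.1 in adductor, -0.38 to -0.12 in gastrocnemius and -0.38 to -0.14 for the difference of effects. The replicate block, pairing gastrocnemius with adductor, called 30 genes higher in T2DM and 31 in control mice, and Herpud1 lower in both, and called 0 between T2DM and control mice. Same-numbered T2DM and control libraries of 1 muscle share only a number, with correlations of -0.659 to 0.822. Ern1 did not pass a filter at 5 RPKM, and at its level in the second set a count of few reads limits the precision.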
